A study of Arabidopsis thaliana with 12 samples.

Results

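The transcript response of the Arabidopsis thaliana mutant gun1-1 to lincomycin was measured on 4 of the 12 ATH1 arrays of a study with 2 factors, genotype and lincomycin. It is the difference between the 2 arrays whose titles give gun1-1 with lincomycin and the 2 whose titles give gun1-1 without it, with control probe sets left out. The other 8 arrays hold Col-0, labelled wild type, and the mutant abi4-102, each with 2 arrays without and 2 with lincomycin. All 6 groups carry the ecotype label Col-0 and consist of whole seedlings aged 5 days, raised at 21 °C in light and dark cycles at 20 µmol per square metre and second, on Murashige and Skoog medium with 1% sucrose. The source names call the seedlings light grown. The lincomycin concentration is 220 µg/ml in one label and 200 µg/ml in another. For replicate 2 of untreated gun1-1 the genotype tag lists all 3 genotypes, so its title was followed. The mutant lines are known here by 1 allele each. GUN1 and ABI4 themselves were not analysed here, and the genotype of no array was checked by its mutated gene.

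Lincomycin blocks protein synthesis on the ribosomes of plastids. In wild-type seedlings that lack plastid translation, the nucleus lowers the transcripts of many photosynthesis genes, a form of plastid-to-nucleus (retrograde) signalling. GUN1 is a pentatricopeptide repeat protein of plastids, and gun (genomes uncoupled) mutants were isolated because nuclear photosynthesis genes stay active when the plastid is damaged. Plastid genes are read by a bacterial-type RNA polymerase, whose core subunits the plastid itself encodes, and by phage-type polymerases encoded in the nucleus. Photosystem genes depend mainly on the former, and the polymerase genes themselves on the latter.

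Expression levels below are RMA values on the log2 scale, given for replicate 1 and then for replicate 2 of a group, and each group mean rests on n = 2 arrays. A probe set passed when limma's moderated test gave a Benjamini-Hochberg adjusted p under 0.05 over all 22746 probe sets. SE is the standard error of a log2 fold change in that fit. The gene lists counted below were compiled with earlier results of these data known. Their counts are set beside the share of all probe sets as a description. Array medians ran from 5.44 to 5.47 in the 4 gun1-1 arrays, and the 25th percentile from 3.61 to 3.76. Replicates correlated across probe sets at r = 0.9908 without and 0.9912 with lincomycin in gun1-1. Nothing in the labels says that replicates are separate cultures. PSAE-1, a nuclear-encoded photosystem I subunit, lay between 12.03 and 12.54 in the 4 gun1-1 arrays. Its own level responded to lincomycin, so it does not measure the amount of photosynthetic tissue, which was not tested. The 5 measured seed markers lay between 3.03 and 6.18.

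In gun1-1 lincomycin changed 2432 probe sets, or 10.7% of those tested, of which 1317 rose and 1115 fell. These are 5.79% and 4.9% of the probe sets tested. A change of at least 2-fold was called for 435 probe sets, with 197 higher and 238 lower. Of the 435, 234 name a single gene, 191 are unnamed and 10 name several genes. The median log2 fold change of all probe sets was -0.0109. For comparison, 17.4% of probe sets passed in Col-0 and 13.2% in abi4-102. All 3 counts rest on few arrays. For gun1-1, leaving out untreated replicate 1 or 2 brought it to 1145 or 1241, and leaving out treated replicate 2 to 1149. With 1 array left out, the count of 3948 in Col-0 went down to 2322 and 2099 without untreated Col-0 replicates 1 and 2. That of 2993 in abi4-102 went down to 1489 and 1156 without its untreated replicates 1 and 2 and to 1692 without its treated replicate 1. When only the 4 gun1-1 arrays were fitted, 766 probe sets passed.

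Of 69 measured plastid-encoded genes 22 fell in gun1-1 and 8 rose, while 4.9% of all probe sets fell and 5.79% rose. In Col-0 15 of the 69 fell and 15 rose, and in abi4-102 13 fell and 23 rose. The falls in gun1-1, to which the values below refer, were most frequent among the photosystem II genes. Of the 15 measured 10 fell and 0 rose, and the median log2 fold change was -1.85. In 14 of the 15 both arrays with lincomycin lay below both without, against 26.9% of all probe sets. psbH, which encodes a small photosystem II subunit, was at 9.34 and 9.70 without lincomycin and at 7.11 and 6.54 with it. Both treated arrays lay more than 2 log2 units below both untreated ones, a 6.47-fold fall (log2 fold change -2.69, SE 0.21, adjusted p = 8.28e-05). psbE, for the alpha subunit of cytochrome b559, went from 10.87 and 10.79 to 8.44 and 8.19, which is 5.73-fold lower (SE 0.21, adjusted p = 0.000114). psbC, for the inner antenna protein CP43, went from 9.37 and 9.44 to 6.86 and 7.38 and fell 4.88-fold (SE 0.24, adjusted p = 0.000365). These 3 genes were chosen among falls whose groups do not overlap. psbJ fell 5.58-fold, psbL 5.11-fold, psbZ 4.0-fold, psbF 3.61-fold and psbM 3.23-fold. psbD, for the reaction centre protein D2, fell 2.67-fold and psbI 2.27-fold. Both of these calls were fragile: that of psbD was lost without any one of the 4 gun1-1 arrays (adjusted p from 0.071 to 0.0996), and that of psbI without 3 of them (without lincomycin replicate 2, 0.119; with lincomycin replicate 1, 0.0516, or replicate 2, 0.106). psbA, for the reaction centre protein D1, had a log2 fold change of -1.27 (SE 0.42, adjusted p = 0.0818), and psbT one of -1.96 (SE 0.66, adjusted p = 0.0836). Neither passed. In whole seedlings, fewer plastids or cells of a type and less RNA in each cannot be told apart.

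The other thylakoid complexes encoded in the plastid moved in part. Of 7 photosystem I genes 3 fell. psaJ, for a small subunit, was at 10.83 and 10.99 without and at 8.28 and 8.51 with lincomycin, a 5.72-fold fall (SE 0.12, adjusted p = 3.42e-06). The reaction centre genes psaA and psaB fell 2.29-fold and 2.17-fold, while psaC, psaI, ycf3 and ycf4 lay between -0.23 and 0.52 on the log2 scale and did not pass. Of 7 genes of the cytochrome b6f list 3 fell, namely petB for cytochrome b6 (5.15-fold, SE 0.21, adjusted p = 0.000152), petL (2.79-fold) and petA for cytochrome f (1.39-fold). The call of petA was lost without any one of the 4 gun1-1 arrays (adjusted p up to 0.154) or without either Col-0 array without lincomycin (0.0518). None of the 6 ATP synthase genes passed limma's test (0 calls, 2 at an unadjusted p under 0.05), and their log2 fold changes ran from -0.49 to 0.14. rbcL, the large subunit of rubisco, had a log2 fold change of 0.37 (SE 0.23, adjusted p = 0.345).

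The plastid NDH complex, which feeds electrons back into the photosynthetic chain, changed in 5 of its 10 measured plastid genes. ndhC went from 9.10 and 9.64 to 7.22 and 6.60, a 5.52-fold fall (SE 0.25, adjusted p = 0.000308). ndhF fell 3.04-fold, ndhA 2.48-fold and ndhI 1.43-fold, whereas ndhH rose 1.69-fold. Of these calls that of ndhC alone held with any 1 array left out. The fallen genes numbered 2 without gun1-1 without lincomycin replicate 2 and 1 without gun1-1 with lincomycin replicate 2, and the rise of ndhH was lost without replicate 1 of either group (adjusted p = 0.0936 and 0.0775).

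Of the 8 plastid genes that rose, 6 belong to the plastid's own genetic system. Of 4 RNA polymerase genes 2 rose. rpoC2 was at 6.21 and 6.93 without and at 8.61 and 8.88 with lincomycin, 4.52-fold higher (SE 0.25, adjusted p = 0.000683). rpoC1 was at 8.65 and 8.41 without and at 10.23 and 10.31 with it, 3.34-fold higher (SE 0.15, adjusted p = 0.000152). The treated arrays lay above the untreated ones for both genes. rpoB had a log2 fold change of 0.92 (SE 0.53) and rpoA one of -0.01 (SE 0.27), and neither passed. clpP, for the proteolytic subunit of the Clp protease, rose 1.98-fold (SE 0.16, adjusted p = 0.00462). Of 15 plastid genes for ribosomal proteins 4 rose and 2 fell. rps2 rose 2.65-fold (SE 0.14, adjusted p = 0.000291), rpl14 2.32-fold, rps15 1.86-fold and rpl16 1.84-fold, while rpl33 fell 4.84-fold (SE 0.24, adjusted p = 0.000427) and rps18 fell 2.04-fold. The calls of rps2 and rpl33 held with any 1 array left out. Only 1 ribosomal protein gene rose without gun1-1 without lincomycin replicate 1, and 2 rose without either array with lincomycin. The fall of rps18 was lost without replicate 2 of the untreated group (adjusted p = 0.182) or without either treated array (0.111 and 0.101).

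Along the plastid genome, in the gene order of the TAIR10.1 annotation, some neighbours shared their direction and others did not. The 4 neighbours psbJ, psbL, psbF and psbE all fell, by 3.61-fold to 5.73-fold. psaJ, rpl33 and rps18 lie next to each other and fell, while rpl20 beside them had a log2 fold change of 1.09 (SE 0.34, adjusted p = 0.066). ndhC fell, while its measured neighbours ndhK and ndhJ had log2 fold changes of -0.26 (SE 0.31) and -0.06 (SE 0.33). psbH and petB fell side by side, while psbN and petD on either side of them had log2 fold changes of 0.42 (SE 0.30) and 0.12 (SE 0.53). rps2, rpoC2 and rpoC1 rose side by side. Neighbouring plastid genes are often transcribed together, and a probe set reads any transcript that holds its gene.

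**Figure D1:**
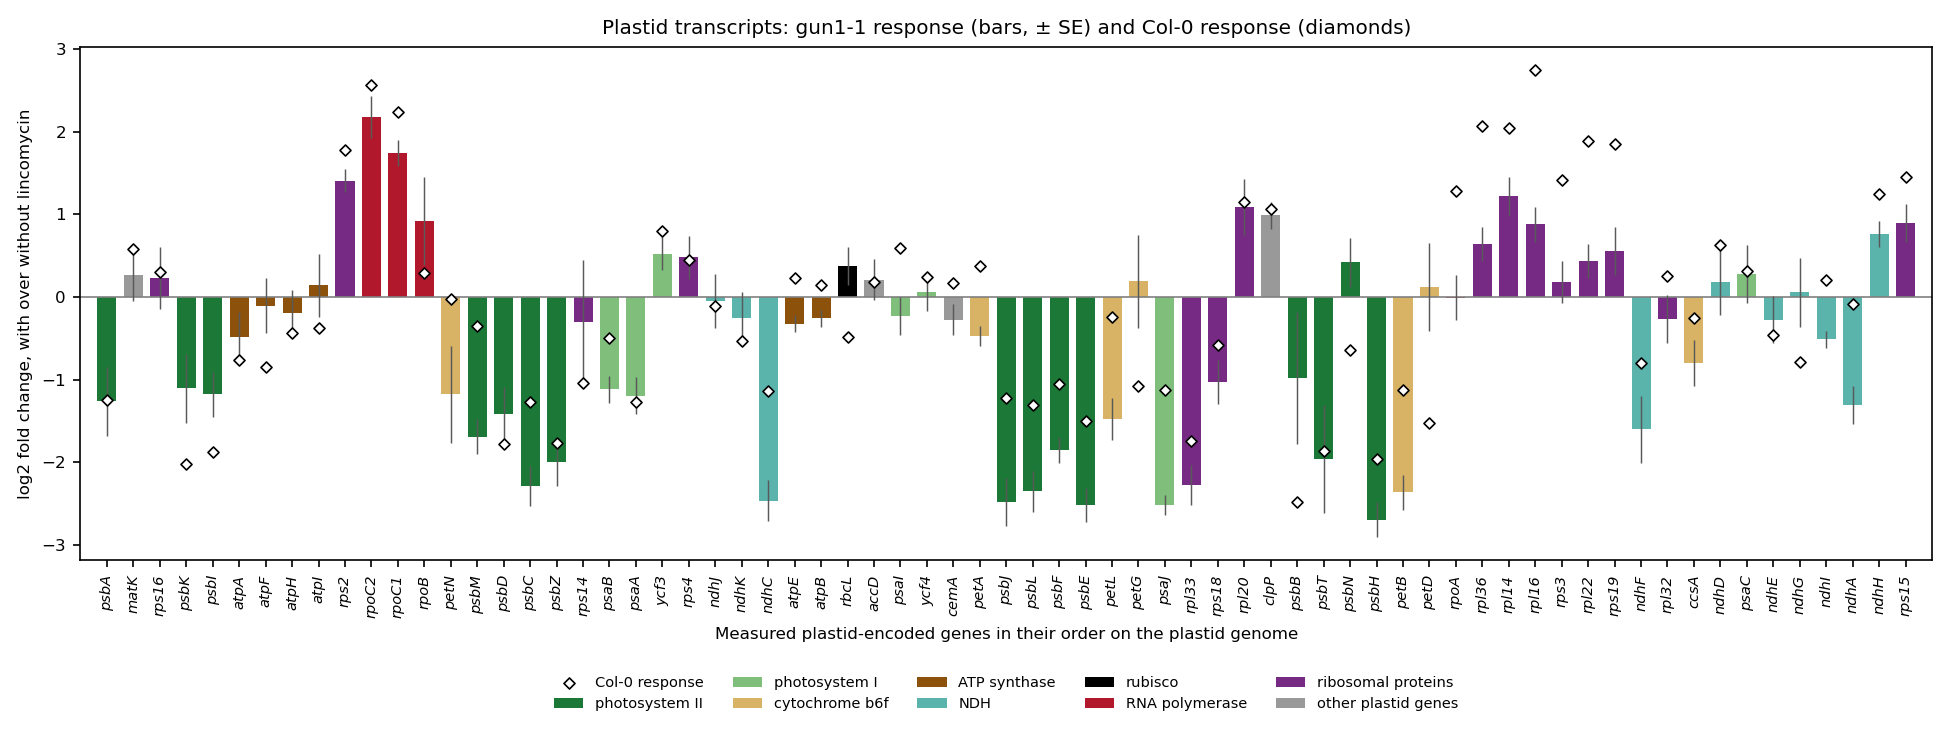
Log2 fold change with over without lincomycin of the measured plastid-encoded genes in genome order. Bars are gun1-1 with ± SE of the fit, coloured by complex, and diamonds are Col-0. psbH, psbE, psaJ, psbJ, ndhC, petB, psbL, psbC and rpl33 reach below -2, while psbN stands at 0.42. rps2, rpoC2, rpoC1, rpl14 and rpl20 stand above 1, and rpl20 did not pass.

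The plastid genes whose response differed from that of Col-0 all had the lower log2 fold change in gun1-1. The difference passed in 8 of the 69, against 1.16% of all probe sets that passed in that direction. They are psaJ (log2 difference -1.39, adjusted p = 0.0019), psbM (-1.34), petB (-1.24), petA (-0.85), ndhI (-0.72), rpl16 (-1.86, adjusted p = 0.00676), rpl22 (-1.46) and rpl36 (-1.43). In Col-0, psaJ was at 10.76 and 10.89 without and at 9.78 and 9.62 with lincomycin, so that the treated gun1-1 arrays lay lower. rpl16 was at 8.30 and 8.26 in untreated Col-0 and at 10.99 and 11.05 in treated Col-0, whereas in gun1-1 it went from 7.93 and 8.56 to 9.10 and 9.15. The treated groups of the genotypes did not overlap in either gene. The differences of psaJ and rpl16 held with any 1 array left out, and each of the other 6 was lost without untreated Col-0 replicate 1 (adjusted p from 0.0632 to 0.162), without treated Col-0 replicate 1 (0.053 to 0.0885) and without treated gun1-1 replicate 2 (0.0514 to 0.10). In gun1-1 the 15 ribosomal protein genes had a median log2 fold change of 0.48, and in Col-0 it was 1.41, with 9 higher and 1 lower. The photosystem II medians were -1.85 and -1.51.

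Some nuclear photosynthesis genes still fell in gun1-1, where 4.9% of all probe sets fell. Among 5 measured nuclear photosystem subunits, PSAE-1 alone passed, as a fall, and the median log2 fold change was -0.32. In all 5 both treated arrays lay below both untreated ones, against 26.9% of all probe sets. By limma 3 of the 5 had an unadjusted p under 0.05. In Col-0 all 5 fell, with a median of -1.41, where 7.95% of all probe sets fell. In abi4-102 all 5 fell too, against 5.51% of all probe sets. PSAE-1 was at 12.47 and 12.54 without and at 12.04 and 12.03 with lincomycin in gun1-1, 1.39-fold lower (SE 0.10, adjusted p = 0.0171). In Col-0 it went from 12.48 and 12.37 to 10.48 and 10.64, a log2 fold change of -1.87. The treated gun1-1 arrays thus lay between untreated and treated Col-0, and the difference of the responses passed (log2 difference 1.40, adjusted p = 0.00116). The call of PSAE-1 in gun1-1 was lost without either array without lincomycin (adjusted p = 0.0577 and 0.0848) or without replicate 2 with it (0.067), while the difference from Col-0 held with any 1 array left out. PSBY, PSAN, PSBW and PSB27 had gun1-1 log2 fold changes from -0.35 to -0.18. For PSBY, PSAN and PSBW the difference from Col-0 passed as well (1.12, 0.97 and 1.16), the last lost without untreated Col-0 replicate 2 (adjusted p = 0.0698).

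The antenna, electron transport and NDH lists of nuclear genes had median log2 fold changes of -0.41, -0.59 and -0.13 in gun1-1. In Col-0 the medians were -1.15, -1.62 and -1.10. Of 3 antenna protein genes LHCB4.3 fell 1.56-fold, LHCB4.2 fell 1.33-fold, and LHCB4.1 did not pass (-0.28). All 3 are LHCB4 genes, so they do not stand for the antenna as a whole. A list counts only genes that a probe set names alone here, and 8730 probe sets are unnamed. The call of LHCB4.2 (adjusted p = 0.0403) was lost without any one of the 4 gun1-1 arrays or the 4 untreated arrays of Col-0 and abi4-102 (adjusted p up to 0.153), and that of LHCB4.3 without untreated replicate 1 or treated replicate 2 of gun1-1 (0.0637 and 0.0577). Of 4 members of the electron transport list 2 fell, TAPX and CaS, and both calls held with any 1 array left out. Neither encodes an electron carrier, so the list is broader than its name. TAPX, a thylakoid ascorbate peroxidase, went from 8.29 and 8.68 to 7.67 and 7.24, 2.04-fold lower (SE 0.17, adjusted p = 0.00414). CaS, a calcium-sensing protein of the thylakoid, went from 9.98 and 10.03 to 9.26 and 9.0, 1.83-fold lower (SE 0.14, adjusted p = 0.00472). In Col-0 CaS was at 7.39 and 7.41 with lincomycin, clearly below both treated gun1-1 arrays, and the difference of the responses was 1.82 (adjusted p = 0.00161). Of 9 nuclear NDH genes NdhS and NdhN fell, 1.48-fold and 1.47-fold, and both calls were lost without any one of the 4 gun1-1 arrays (adjusted p from 0.0529 to 0.119). NdhL, which had a log2 fold change of -2.05 in Col-0, had one of -0.13 (SE 0.16) in gun1-1. In these lists the difference from Col-0 passed, with the higher log2 fold change in gun1-1, for 2 of 3 antenna and 4 of 9 NDH genes. It did so for 3 of 4 members of the electron transport list as well, and 0 genes passed with a lower one. Without untreated Col-0 replicate 2 the differences of LHCB4.1, TAPX and ATPC1 did not pass (adjusted p = 0.0769, 0.103 and 0.0526), and those of LHCB4.1 and TAPX were also lost without 5 and 7 further arrays, respectively (up to 0.127). Over all probe sets that share was 3.22%.

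In the Calvin cycle list 1 of 5 genes fell in gun1-1 and 1 rose, and the median log2 fold change was -0.32. At an unadjusted p under 0.05 there were 4 of 5, and in 4 both treated arrays lay below both untreated ones. RCA, which activates rubisco, was at 12.57 and 12.55 without and at 12.44 and 12.38 with lincomycin (log2 fold change -0.15, SE 0.12, adjusted p = 0.47). PRK, phosphoribulokinase, had a log2 fold change of -0.32 (SE 0.13), and SBPASE, sedoheptulose bisphosphatase, one of -0.46 (SE 0.15, adjusted p = 0.0766). Their Col-0 log2 fold changes were -0.98, -1.51 and -1.79, and the difference passed for all 3. That of RCA was lost without any one of untreated Col-0 replicates 1 and 2, treated Col-0 replicate 1, untreated gun1-1 replicates 1 and 2 and treated gun1-1 replicate 1 (adjusted p up to 0.0834). AT1G56190 fell 1.34-fold, a call lost without any one of the 4 gun1-1 arrays (adjusted p up to 0.136) or either untreated Col-0 array (0.0501), and AT5G64380 rose 1.61-fold (SE 0.10, adjusted p = 0.00264). Of 5 photorespiration genes none passed limma's test in gun1-1 (0 calls, 0 at an unadjusted p under 0.05), with log2 fold changes from -0.19 to 0.02. In Col-0 3 of them fell and 1 rose.

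Of 12 genes of tetrapyrrole synthesis, which makes chlorophyll and haem, PORB fell and HEME1 rose in gun1-1. PORB, a light-dependent protochlorophyllide oxidoreductase, was at 7.88 and 8.02 without and at 6.22 and 6.56 with lincomycin. It fell 2.95-fold (log2 fold change -1.56, SE 0.15, adjusted p = 0.00024). Both treated arrays lay below both untreated ones. In Col-0 its log2 fold change was -1.33, and the difference between the genotypes did not pass (-0.23, adjusted p = 0.675). The other 11 measured genes lay between -0.20 and 0.53. HEME1, uroporphyrinogen decarboxylase, rose 1.44-fold (adjusted p = 0.0316), a call lost without either untreated Col-0 array (0.0533), untreated gun1-1 replicate 1 (0.193) or either treated gun1-1 array (0.112 and 0.0811). CHLM, a methyltransferase of the magnesium branch, and CHLI2, a magnesium chelatase subunit, had log2 fold changes of -0.03 (SE 0.10) and 0.00 (SE 0.16) in gun1-1, against -0.81 and -0.98 in Col-0. Against Col-0, 5 of the 12 genes had the higher log2 fold change in gun1-1, namely HEME1, HEME2, CHLM, CHLI2 and AT1G74470 (geranylgeranyl reductase). The difference of HEME1 held with any 1 array left out. The other 4 were each lost without either untreated Col-0 array (adjusted p from 0.0571 to 0.12), and without some others.

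None of the 12 measured members of the list of nuclear genes for plastid ribosomal proteins passed in gun1-1. There were 0 calls by limma, 2 at an unadjusted p under 0.05, and 0 calls with any 1 array left out. Their log2 fold changes ran from -0.36 to 0.28, and the median was -0.04. In Col-0 10 of them fell, with a median of -0.75. The difference between the genotypes passed for 3 of the 12, AT5G47190 (1.24, adjusted p = 0.00669), AT2G35410 (0.93, adjusted p = 0.0306) and AT3G54210 (0.89, adjusted p = 0.0395). Members entered the list by symbol or locus, and AT2G35410 was not checked to encode a ribosomal protein. The differences of AT2G35410 and AT3G54210 were each lost without either untreated Col-0 array, treated Col-0 replicate 2, untreated gun1-1 replicate 1 or treated gun1-1 replicate 2 (adjusted p up to 0.136), among others, 8 and 10 arrays in all. Of 6 genes for plastid chaperones and proteases, Cpn60beta3 rose 1.36-fold (adjusted p = 0.0404), a call lost without either untreated gun1-1 array, treated gun1-1 replicate 2, or any untreated Col-0 or abi4-102 array (adjusted p up to 0.222). The chaperonin gene Cpn60beta2 was at 9.30 and 9.23 without and at 8.99 and 9.14 with lincomycin in gun1-1, and at 7.37 and 7.43 in treated Col-0. All 4 gun1-1 arrays lay above both treated Col-0 arrays.

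**Figure D2:**
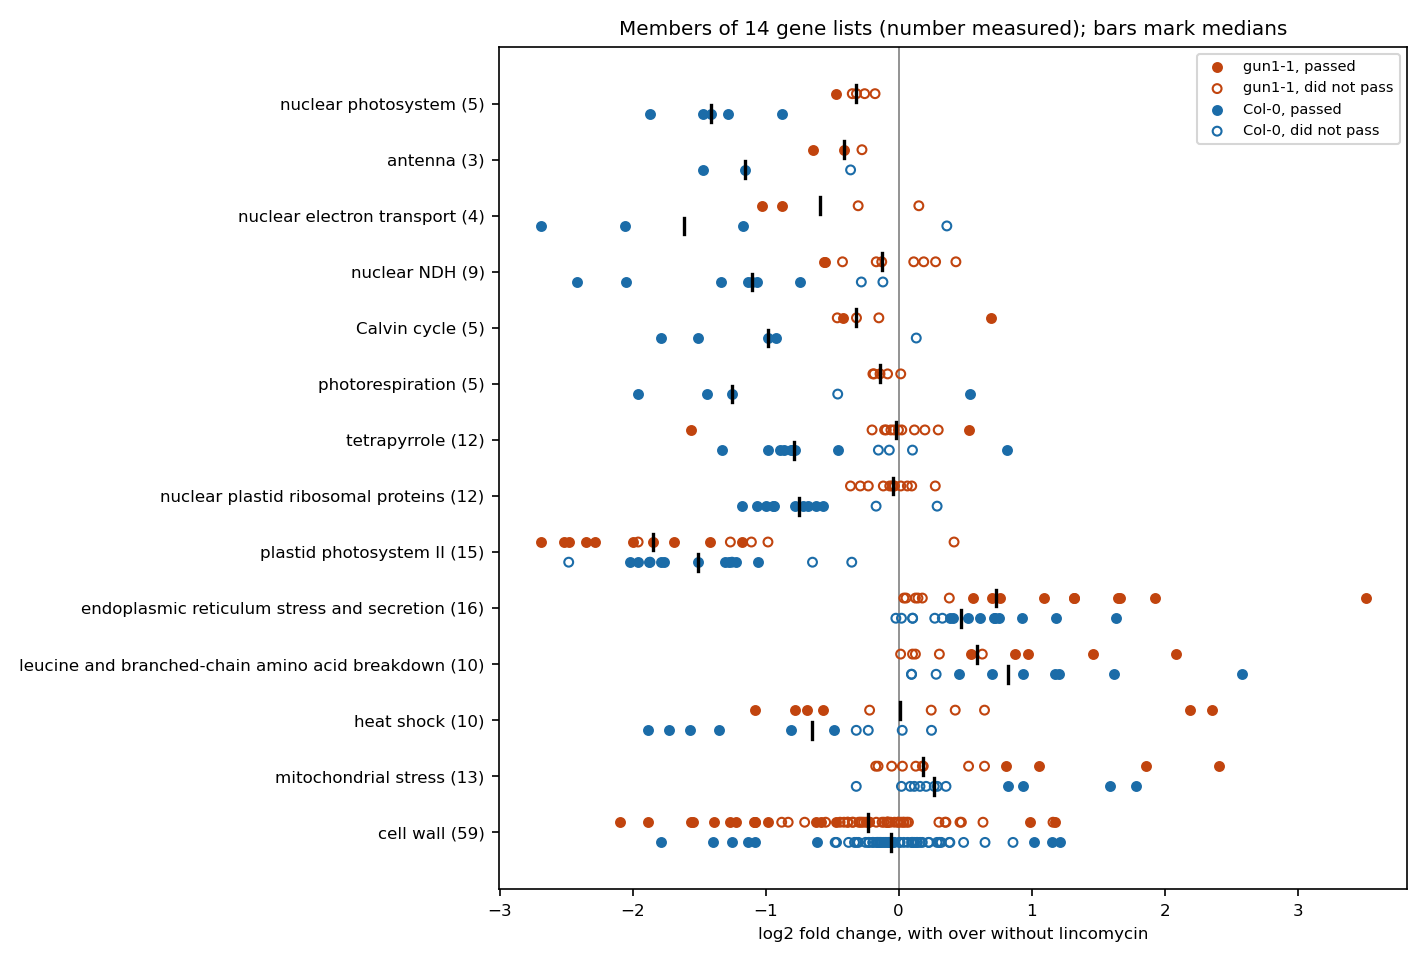
Log2 fold change with over without lincomycin of every measured member of 14 gene lists, in gun1-1 (orange) and Col-0 (blue). Filled points passed at adjusted p under 0.05 and black bars mark the median of each list. The nuclear photosynthesis lists and the list of nuclear genes for plastid ribosomal proteins have medians from -0.59 to -0.04 in gun1-1 and from -1.62 to -0.75 in Col-0, while those of plastid photosystem II are -1.85 and -1.51.

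Among nuclear genes that rose in gun1-1, members of the endoplasmic reticulum stress and secretion list were frequent. Of its 16 measured members 10 rose and 0 fell, and the median log2 fold change was 0.73, while 5.79% of all probe sets rose and their median was -0.0109. In 13 of the 16 both treated arrays lay above both untreated ones, against 26.3% of all probe sets. The list was compiled with earlier results of these data known. Its count stayed between 9 and 10 with any 1 array left out and between 7 and 10 over all alternatives. In Col-0 10 of the 16 rose too, with a median of 0.47, and in abi4-102 5 rose, with a median of 0.38. Of all probe sets 9.4% rose in Col-0 and 7.65% in abi4-102.

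SEC31A (AT1G18830), whose name is that of a coat protein of vesicles leaving the endoplasmic reticulum, had the largest rise of all probe sets that passed in gun1-1, unnamed ones included. It was at 4.20 and 3.92 without lincomycin, close to the 25th percentile of the arrays, and at 7.74 and 7.42 with it. That is 11.4-fold higher (log2 fold change 3.51, SE 0.17, adjusted p = 3.42e-06). In Col-0 it went from 3.72 and 3.89 to 5.63 and 5.26, and in abi4-102 from 3.80 and 3.55 to 5.27 and 5.27. Untreated levels ran from 3.55 to 4.20 over the 3 genotypes, with both gun1-1 arrays slightly above the others. The treated gun1-1 arrays stood above the other treated arrays by more. The response of gun1-1 exceeded that of Col-0 by 1.88 on the log2 scale (adjusted p = 0.00202) and that of abi4-102 by 1.91 (adjusted p = 0.0109).

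BZIP60, a transcription factor of the unfolded protein response, was at 8.19 and 8.20 without and at 9.63 and 9.40 with lincomycin in gun1-1, a 2.5-fold rise (SE 0.12, adjusted p = 0.000177). In treated Col-0 it was at 9.15 and 8.93, and the difference of the responses, 0.60, did not pass (adjusted p = 0.0884). OS9, which takes part in the degradation of misfolded proteins of the endoplasmic reticulum, rose 2.49-fold (SE 0.19, adjusted p = 0.00236). AT3G60540, AT1G29310 and AT4G16660 rose 3.80-fold, 3.17-fold and 3.14-fold. For AT3G60540 and AT4G16660 the response was larger than in Col-0, by 1.00 (adjusted p = 0.0132) and 0.93 (adjusted p = 0.00978). Without Col-0 without lincomycin replicate 2 these differences gave adjusted p = 0.0653 and 0.0526. ATERDJ3B, a co-chaperone, and CRT1b, a calreticulin, rose 1.63-fold and 1.47-fold. Other stress regulators of the compartment did not pass. BZIP28 had a log2 fold change of 0.13 (SE 0.12) and BZIP17 one of 0.06 (SE 0.13).

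**Figure D3:**
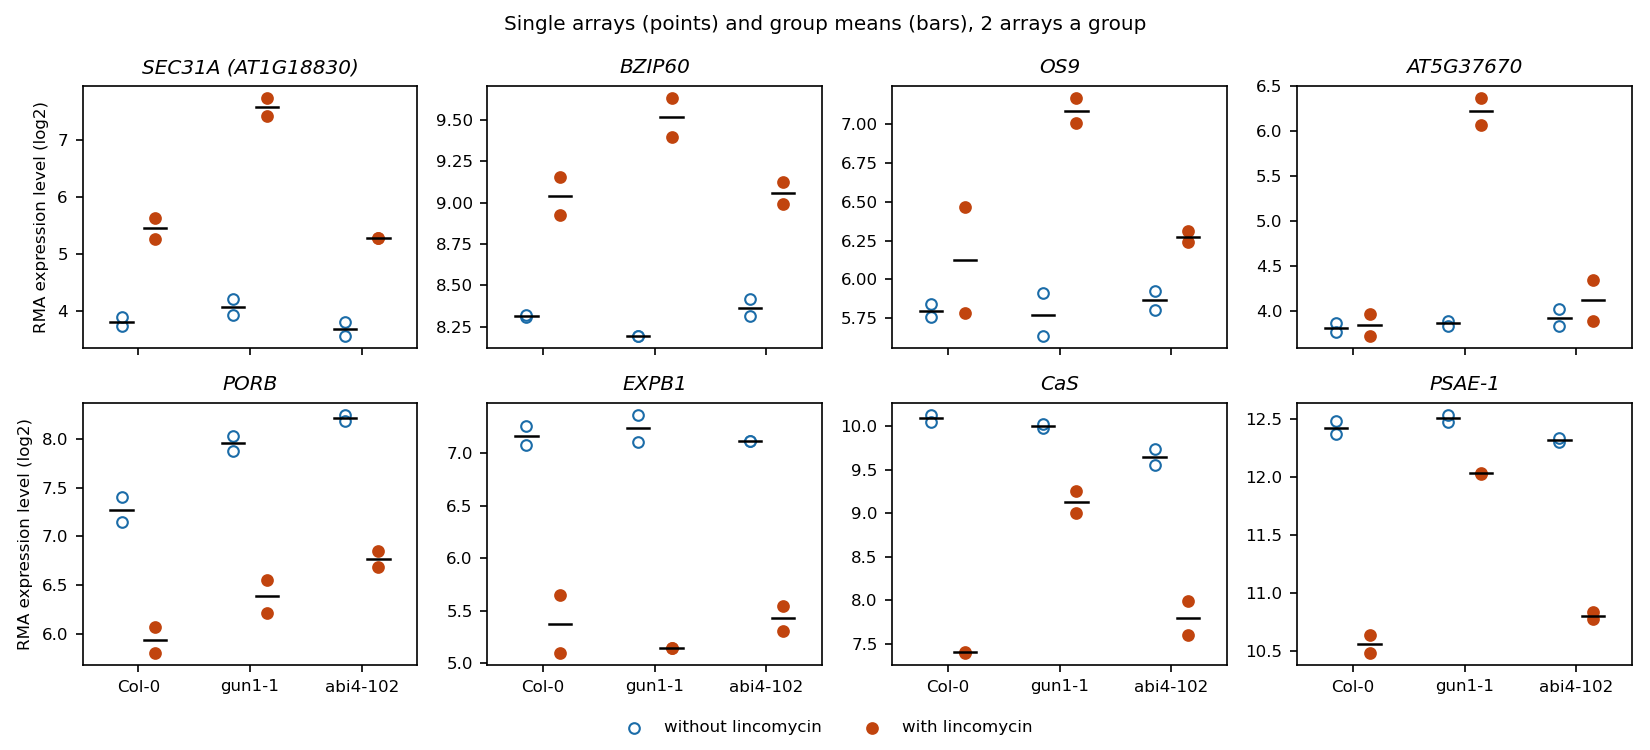
RMA expression level (log2) of 8 genes in all 12 arrays, open points without and filled points with lincomycin, with bars at group means. SEC31A, BZIP60, OS9 and AT5G37670 are highest in treated gun1-1. PORB and EXPB1 are lower with lincomycin in all 3 genotypes, and the treated gun1-1 arrays lie above the other treated arrays for CaS and PSAE-1.

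Heat shock genes moved in both directions in gun1-1, with 2 of 10 higher and 4 lower, against 5.79% and 4.9% of all probe sets. AT5G37670 was at 3.89 and 3.83 without and at 6.37 and 6.07 with lincomycin, a 5.13-fold rise (SE 0.17, adjusted p = 4.08e-05). AT1G53540 went from 3.66 and 3.69 to 5.86 and 5.87, 4.57-fold higher (SE 0.22, adjusted p = 0.000296). Untreated levels of both lay near the 25th percentile of the arrays. In treated Col-0 AT5G37670 was at 3.71 and 3.96 and AT1G53540 at 3.57 and 3.62, so that neither rose there, and both differences from Col-0 passed (2.33, adjusted p = 0.00101, and 1.94, adjusted p = 0.00662). Of the 10 genes 6 fell and 0 rose in Col-0, and 5 fell and 1 rose in abi4-102. The difference from Col-0 passed for 5 of the 10, each with the higher log2 fold change in gun1-1, against 3.22% of all probe sets. Of these, the differences of AT2G29500 and AT5G48570 were lost without either untreated Col-0 array, among others. AT3G09440 fell 2.12-fold (SE 0.13, adjusted p = 0.000827) in gun1-1. Hop3, a co-chaperone, AT5G48570 (FKBP65) and AT2G20560 fell 1.72-fold, 1.61-fold and 1.48-fold, and each of these 3 calls was lost without untreated replicate 2 of gun1-1 (adjusted p = 0.0692, 0.0633 and 0.146) and without treated replicate 2 (0.123, 0.0754 and 0.0608). The call of Hop3 was also lost without untreated replicate 1 (0.10), and that of AT2G20560 without treated replicate 1 (0.106).

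Of 13 genes of the mitochondrial stress list 4 rose in gun1-1 and 0 fell, while 5.79% of all probe sets rose. This list too was compiled with earlier results of these data known. AT2G21640 was at 4.33 and 4.49 without and at 7.13 and 6.50 with lincomycin, 5.30-fold higher (SE 0.20, adjusted p = 0.000114), and it was also higher in Col-0 (log2 fold change 1.79) and abi4-102 (2.54). AT2G41730 rose 3.62-fold, AT5G43450 2.08-fold and AT5G09570 1.75-fold, but without untreated gun1-1 replicate 2 only AT2G21640 passed (adjusted p of the others 0.0549, 0.0713 and 0.071). The call of AT5G43450 was also lost without treated replicate 1 (0.0617), and that of AT5G09570 without untreated replicate 1 (0.0683) or treated replicate 2 (0.101). The alternative NADH dehydrogenase genes NDB1, NDB2 and NDB4 had log2 fold changes of -0.16, 0.03 and 0.13. Of 16 transcripts encoded in the mitochondrion 3 rose, namely ccb382 (3.25-fold, SE 0.20, adjusted p = 0.000864), nad4 (2.22-fold) and ccb452 (1.64-fold, lost without untreated replicate 1, adjusted p = 0.0609, or treated replicate 2, 0.0515). The ccb genes serve cytochrome c maturation, and nad4 encodes a subunit of complex I.

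Of 10 genes for the breakdown of leucine and other branched-chain amino acids 5 passed in gun1-1, all higher, while 5.79% of all probe sets rose. The list was added after values had been seen, and 2 to 6 of it passed over the alternatives. MCCA, a subunit of methylcrotonyl-CoA carboxylase, was at 6.34 and 6.88 without and at 8.55 and 8.85 with lincomycin, 4.25-fold higher (SE 0.19, adjusted p = 0.000152). IVD, isovaleryl-CoA dehydrogenase, went from 6.91 and 7.57 to 8.75 and 8.65, 2.76-fold higher (SE 0.20, adjusted p = 0.00166). MCCB, the other carboxylase subunit, rose 1.96-fold and ETFQO, which passes electrons from such dehydrogenases to ubiquinone, 1.84-fold. The median over the 10 was 0.59. ALDH6B2 rose 1.46-fold, a call lost without any one of the 4 gun1-1 arrays (adjusted p up to 0.144) or either untreated Col-0 array (0.0501). In Col-0 7 of the 10 rose, with a median of 0.82, and 0 of the 10 differences between the genotypes passed (limma).

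The other large rises in gun1-1 belonged mostly to genes named here by locus only. AT4G21740 was at 4.09 and 3.93 without and at 7.88 and 6.90 with lincomycin, 10.4-fold higher (SE 0.26, adjusted p = 8.28e-05). BGLU25, of the beta-glucosidase family, was at 7.01 and 7.42 without and at 10.65 and 10.16 with it, 9.11-fold higher (SE 0.18, adjusted p = 1.27e-05). Its response was larger than that of Col-0 by 1.61 (adjusted p = 0.00631) and than that of abi4-102 (adjusted p = 0.0252). AT1G43910 rose 9.39-fold, AT5G17760 7.37-fold, AT4G25580 5.67-fold, AT5G13880 5.46-fold, AT2G04050 4.92-fold and AT3G15980 4.45-fold. The call of AT4G25580, at 5.53 and 6.85 with lincomycin, was lost without treated replicate 2 (adjusted p = 0.064). COR27, a cold-regulated gene, rose 5.19-fold, a call lost without either untreated array (0.0549 and 0.0645) or without treated replicate 2 (0.0865). All 9 of these genes also rose in Col-0, with log2 fold changes from 0.88 to 2.15. The response of AT5G13880 was larger in gun1-1 by 1.57 (adjusted p = 0.00507). So was that of AT1G43910, by 1.97 (adjusted p = 0.0445), a difference lost without any 1 of 9 arrays, among them all 4 of gun1-1 and both untreated Col-0 arrays (up to 0.156).

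AT1G73600 rose in gun1-1 and had the opposite sign in both other genotypes. It was at 5.22 and 5.57 without and at 7.41 and 7.88 with lincomycin in gun1-1, 4.76-fold higher (SE 0.17, adjusted p = 6.85e-05). In Col-0 it went from 5.62 and 5.64 to 5.25 and 5.06, and in abi4-102 from 5.45 and 5.42 to 4.54 and 4.78. The differences from Col-0 (2.73, adjusted p = 0.00059) and abi4-102 (3.03, adjusted p = 0.000725) both passed.

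**Figure D4:**
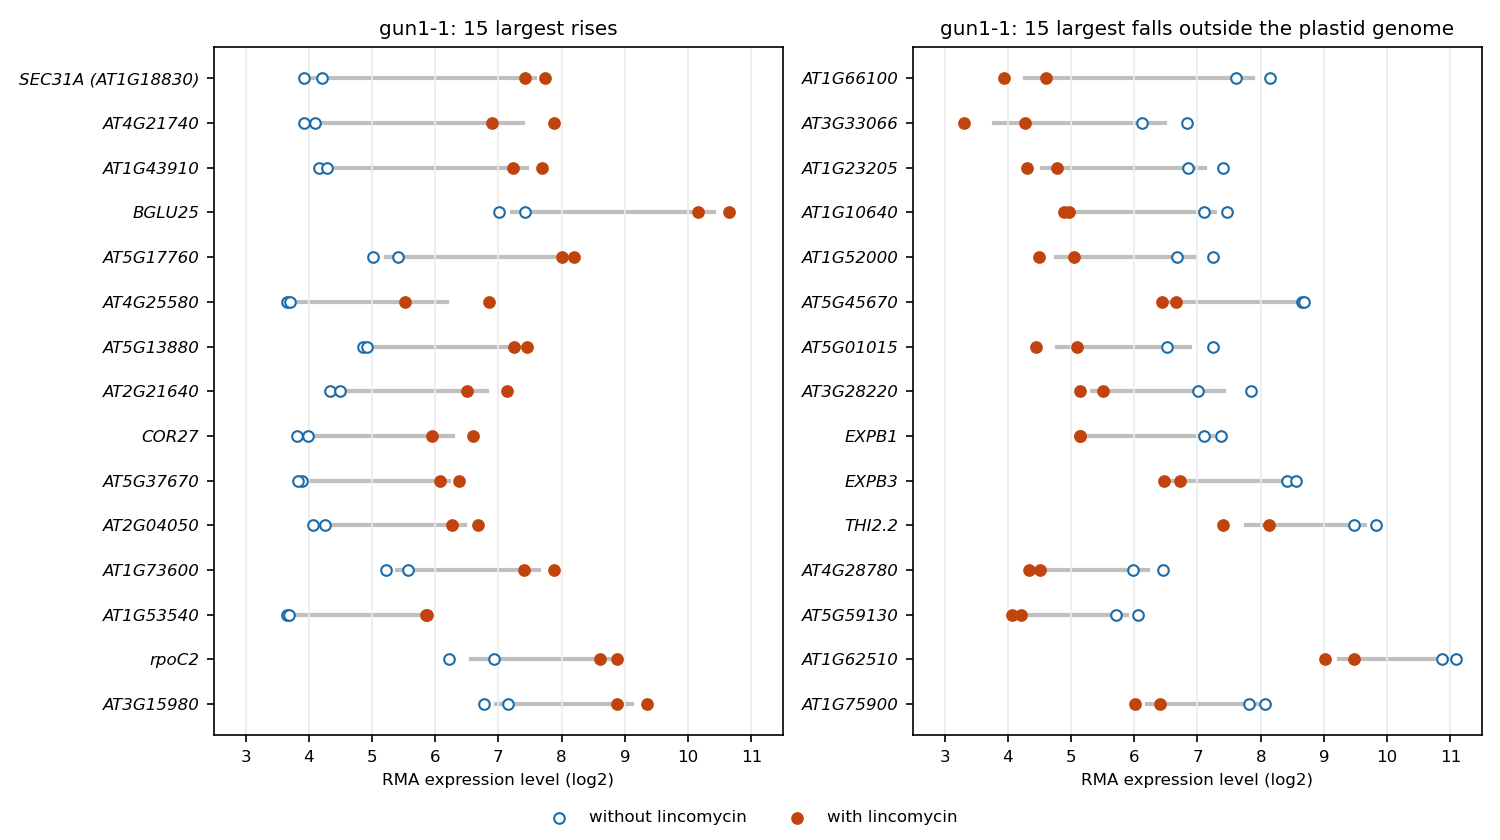
RMA expression level (log2) of the 15 largest rises and the 15 largest falls outside the plastid genome in gun1-1, among probe sets that name 1 gene and passed. Each point is 1 array, open without and filled with lincomycin. The grey line joins the group means. Genes were chosen for groups that do not overlap, and the spread between the treated arrays is widest for AT4G25580 among the rises.

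What fell outside the plastid genome included many cell wall genes. Of 59 measured members of the cell wall list 14 fell and 2 rose, and the median log2 fold change was -0.23, while 4.9% of all probe sets fell. This list too was compiled with earlier results of these data known. The number that fell ran from 8 to 15 over the alternatives, and it was 9 without untreated gun1-1 replicate 2. EXPB1, an expansin, which loosens cell walls, was at 7.11 and 7.37 without and at 5.14 and 5.14 with lincomycin, 4.27-fold lower (SE 0.17, adjusted p = 0.000113). EXPB3 went from 8.42 and 8.55 to 6.47 and 6.73, 3.70-fold lower (SE 0.24, adjusted p = 0.00111). The expansins EXPA16 and EXPA8 fell 2.95-fold and 2.92-fold, the latter lost without untreated replicate 1 (adjusted p = 0.066). EXPB1, EXPB3 and EXPA16 were lower in treated Col-0 as well, with log2 fold changes of -1.79, -1.08 and -1.26. In Col-0 6 members fell and 3 rose, and the difference between the genotypes passed for EXPA4, EXPA20 and GH9B13, all lower in gun1-1 (-1.5, -0.93 and -1.85). The difference of EXPA4 was lost without untreated Col-0 replicate 2 (adjusted p = 0.0523), and that of EXPA20 without any one of the 8 Col-0 and gun1-1 arrays (0.07 to 0.158).

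The 2 cell wall genes that rose, GH9C1 (1.98-fold), of the endoglucanase family, and EXPA18 (2.26-fold), stood apart from the rest. EXPA18 is known from root hairs and is 1 of 4 measured root markers. It was at 5.08 and 4.78 without and at 6.65 and 5.57 with lincomycin. AT1G30870 was at 6.51 and 6.25 without and at 8.31 and 6.79 with it, and EXPA7 at 4.60 and 4.85 without and 5.63 and 4.43 with it. Treated replicate 1 was the highest of the 4 gun1-1 arrays for all 3 genes, and EXPA7 overlapped between the groups. PYK10, a root and hypocotyl beta-glucosidase, did not pass (log2 fold change -0.33, SE 0.13). The call of EXPA18 was lost without either untreated array, without treated replicate 1 (adjusted p = 0.165) and without either untreated Col-0 array (0.0552), and that of GH9C1 without the same arrays (up to 0.219). Without treated replicate 2, 3 of the root markers and 4 cell wall genes rose. The part of root tissue in these values was not tested.

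Of all probe sets that passed in gun1-1, unnamed ones included, that of AT1G66100 fell most, from 8.15 and 7.61 to 4.60 and 3.93, 12.2-fold (log2 fold change -3.61, SE 0.45, adjusted p = 0.00105). THI2.2, a thionin, a small antimicrobial protein, went from 9.82 and 9.47 to 8.13 and 7.41, 3.67-fold lower (SE 0.25, adjusted p = 0.00173). Both were also lower in treated Col-0 and abi4-102 (log2 fold changes -3.33 and -1.73 in Col-0, -2.05 and -1.47 in abi4-102). AT1G23205 fell 5.99-fold, AT1G10640 5.12-fold, AT1G52000 4.57-fold, AT5G45670 4.32-fold, AT5G01015 4.32-fold and AT3G28220 4.28-fold. AT4G28780, AT5G59130, AT1G62510 and AT1G75900 fell 3.32-fold to 3.49-fold. AT3G33066, which the annotation lists as a pseudogene, fell 6.48-fold (adjusted p = 0.0241), a call lost without any one of the 4 gun1-1 arrays (adjusted p from 0.0512 to 0.123). Among these falls and those of EXPB1 and EXPB3, 15 in all, the response differed from that of Col-0 for AT5G45670 (log2 difference -1.18, adjusted p = 0.021) and for AT3G28220 (2.07, adjusted p = 0.0105). The first difference was lost without either untreated Col-0 or gun1-1 array or treated replicate 2 of either genotype (adjusted p up to 0.0868) and the second without untreated Col-0 replicate 1 (0.054).

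Most other lists held few changes in gun1-1, where 5.79% of all probe sets rose and 4.9% fell. Calls in either direction made up 5.77% of the glycosyltransferases and 4.0% of the starch and sugar genes. They made up 12.5% of the auxin, defence and flavonoid genes and 11.1% of the reference genes. These shares lie below or near the 10.7% of all probe sets, so the counts say little about the families. Of 16 defence genes THI2.2 and LCR69 fell, the latter 1.6-fold and lost without untreated replicate 2 (adjusted p = 0.105) or treated replicate 1 (0.0864). Of 52 glycosyltransferases 3 fell, namely UGT76B1 (1.94-fold, lost without any one of the 4 gun1-1 arrays, adjusted p up to 0.115), GT72B1 (1.80-fold, adjusted p = 0.00126) and UGT74B1 (1.69-fold, also a glucosinolate gene). Only 1 of them passed without untreated replicate 1 or treated replicate 2. CHIL, of the chalcone isomerase family, was the 1 of 8 flavonoid genes that fell (2.35-fold, lost without treated replicate 2, adjusted p = 0.0545), and SWEET13, a sugar transporter, the 1 of 25 starch and sugar genes (1.73-fold, adjusted p = 0.00376). Of 11 autophagy genes ATG8F and ATG8D rose 1.44-fold and 1.5-fold, and neither call held with every array left out in turn (adjusted p up to 0.0565 and 0.206). Of 16 auxin genes GH3.3, for an auxin-conjugating enzyme, rose 3.15-fold (lost without untreated replicate 2, adjusted p = 0.0618, or treated replicate 1, 0.05), and WES1, of the same family, fell 1.33-fold, a call lost without any array but the 2 of treated Col-0 (up to 0.203). None of 22 cytochrome P450 genes and none of 7 WRKY factors passed limma's test (0 calls, 3 and 0 at an unadjusted p under 0.05). Of 9 reference genes AT4G34270 rose 1.35-fold (adjusted p = 0.0381, lost without any one of the 4 gun1-1 arrays or either untreated Col-0 array, up to 0.134), and the other 8 lay between -0.21 and 0.12. None of 3 epidermal and stomatal markers and none of 5 seed markers passed (0 calls, 1 and 0 at an unadjusted p under 0.05).

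The genes that fell furthest in Col-0 were chosen for that fall, so a smaller fall in another genotype is in part built into the choice, and their values are given as a description. AT3G28270 went from 9.90 and 9.86 to 3.89 and 3.97 in Col-0, a log2 fold change of -5.95, and from 9.29 and 9.43 to 7.96 and 7.99 in gun1-1, a fall of 2.62-fold (SE 0.13, adjusted p = 0.000211). AT2G27420 was at 3.47 and 3.40 in treated Col-0 and at 7.41 and 6.99 in treated gun1-1, where it fell 2.51-fold (SE 0.16, adjusted p = 0.000848). For both genes the treated gun1-1 arrays lay between the untreated and treated Col-0 arrays. The treated Col-0 levels lay at or near the 25th percentile of those arrays (3.65 and 3.71), where signal is low, so the sizes of the falls in Col-0 and of the differences are uncertain. AT1G60590 had log2 fold changes of -4.15 in Col-0 and -1.71 in gun1-1, and AT5G48490 of -3.46 and -1.66. AT1G65870 had -3.13 in Col-0 and -0.27 (SE 0.24, adjusted p = 0.512) in gun1-1. All 5 differences passed (adjusted p from 1.99e-06 to 0.00224). Among the 10 largest falls of Col-0, 8 fell in gun1-1 too. The exceptions were AT1G65870 and COR15A, a cold-regulated gene, at 8.11 and 8.17 without and 6.06 and 7.04 with lincomycin in gun1-1 (log2 fold change -1.59, SE 0.61, adjusted p = 0.126).

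Of the 10 largest rises of Col-0, 8 rose in gun1-1 as well. Besides MCCA, GH3.3, AT4G21740, AT5G17760 and AT2G04050, described above, these were AT1G17960 (3.05-fold), AT1G19540 (1.98-fold) and AT1G19530 (2.03-fold). The call of AT1G19530 in gun1-1 was lost without untreated replicate 2 (adjusted p = 0.151) or either treated array (0.122 and 0.0589). PDF1.4, a plant defensin, was at 5.76 and 4.63 without and at 4.99 and 5.83 with lincomycin in gun1-1, overlapping between the groups, and at 7.03 and 6.94 in treated Col-0. AT2G43620 was at 9.55 in 1 untreated gun1-1 array and at 6.27, 6.07 and 6.91 in the other 3, so that its replicates differed by more than the treatment groups did.

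Of the 13265 nuclear genes measured, 386 rose in both gun1-1 and Col-0, which is 55.5% of the 695 that rose in gun1-1 and 35.2% of the 1098 that rose in Col-0. For falls, 209 were shared, 36.5% of the 573 in gun1-1 and 23.4% of the 892 in Col-0. For comparison, 9.4% of all probe sets rose and 7.95% fell in Col-0, and 5.79% rose and 4.9% fell in gun1-1. The shared percentages lay above these, for rises and for falls. Of the genes that passed in gun1-1, 21 of the rises fell in Col-0 and 9 of the falls rose there. The 2 responses share no array, though they share the fit's estimate of spread. Across these genes, which are not independent, the log2 fold changes correlated at r = 0.504 between gun1-1 and Col-0 and at 0.626 between gun1-1 and abi4-102, as a description of 4 arrays each.

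**Figure D5:**
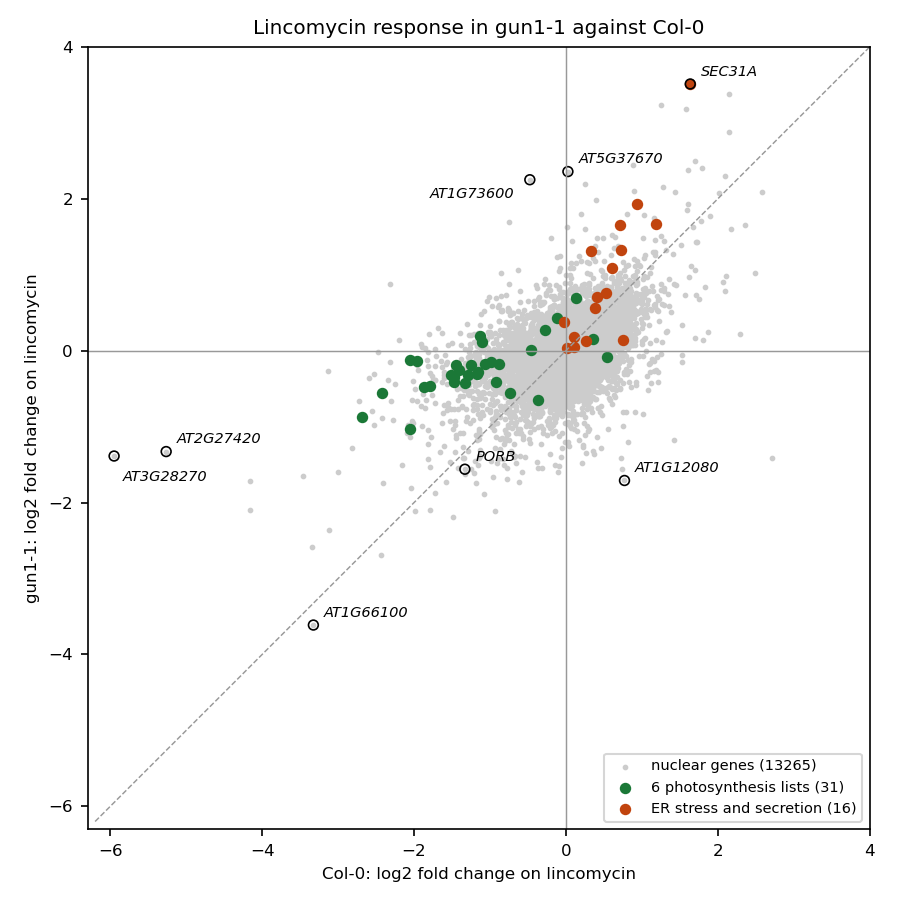
Log2 fold change on lincomycin in Col-0 (horizontal axis) and gun1-1 (vertical axis) of 13265 nuclear genes, with 6 nuclear photosynthesis lists in green and the endoplasmic reticulum stress and secretion list in orange. The dashed line marks equal responses. Green points lie mostly above the line, PORB and AT1G66100 lie near the line, and SEC31A lies above it.

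The response of gun1-1 differed from that of Col-0 for 997 probe sets (4.38%), with 733 higher and 264 lower in gun1-1. The count went down to 424 or 392 without untreated Col-0 replicate 1 or 2, and to 529 without untreated gun1-1 replicate 1. Beyond the genes above, AT5G42760 was at 8.57 and 8.04 without and at 9.58 and 8.79 with lincomycin in gun1-1 (log2 fold change 0.88, adjusted p = 0.0688), whereas in Col-0 it went from 8.64 and 8.52 to 6.01 and 6.52. The difference, 3.19, passed (adjusted p = 0.00193). Lower responses in gun1-1 were led by AT1G12080, which went from 8.14 and 8.36 to 7.06 and 6.02 in gun1-1 and from 7.33 and 7.42 to 7.94 and 8.36 in Col-0 (difference -2.48, adjusted p = 0.00627). GH9B13, of the endoglucanase family, went from 6.37 and 7.08 to 5.81 and 5.98 in gun1-1 and from 6.05 and 6.10 to 7.44 and 6.74 in Col-0 (difference -1.85, adjusted p = 0.0208, lost without either untreated Col-0 array, treated Col-0 replicate 1, untreated gun1-1 replicate 2 or treated gun1-1 replicate 1, up to 0.0815). In AT1G12080 untreated gun1-1 lay above untreated Col-0, and the order turned with lincomycin. AT5G44400 and AT1G80280 fell 2.43-fold and 2.56-fold in gun1-1 and had log2 fold changes of 0.47 and 0.37 in Col-0 (differences -1.75 and -1.72).

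Against abi4-102 far fewer responses differed, 121 probe sets or 0.532%, of which 88 (0.387%) were higher in gun1-1. Higher ones included 2 of 5 nuclear photosystem genes, 1 of 9 nuclear NDH genes and 1 of 5 photorespiration genes. In the antenna, electron transport, Calvin cycle, tetrapyrrole and nuclear plastid ribosomal protein lists 0 differences passed. A difference that did not pass does not show equal responses. AT3G28270 (log2 difference 3.26), AT2G27420 (3.32), AT5G42760 (3.09) and AT1G65870 (2.41) had higher responses in gun1-1, as against Col-0, though both comparisons share the gun1-1 arrays. The differences of AT5G42760 and AT1G65870 were lost without untreated abi4-102 replicate 1 (adjusted p = 0.0526 and 0.0623), the latter also without untreated replicate 2 (0.0621) or treated replicate 1 (0.0529) of abi4-102. Among plastid genes psaJ (-1.86, adjusted p = 0.00159), rpl36 (-2.42), rpl14 (-1.98), rpl16 (-1.95) and petA (-1.29) had lower ones. In abi4-102 psaJ was at 11.15 and 11.16 without and at 10.52 and 10.48 with lincomycin, about 2 log2 units above treated gun1-1. The count of 121 ran from 20 to 130 with 1 array left out, and the differences of rpl14 and rpl16 were both lost without untreated replicate 2 (adjusted p = 0.12 and 0.069) or treated replicate 1 of abi4-102 (0.12 and 0.0925) or either treated gun1-1 array (0.0561 to 0.0843), that of rpl14 also without 4 further arrays. That of petA was lost without untreated replicate 2 (0.0621) or treated replicate 1 (0.0529) of abi4-102.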

How the data were processed

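Total RNA of whole seedlings was hybridised to 12 ATH1 arrays. The deposited values are log2 expression levels that the authors obtained by RMA, which corrects background, quantile-normalizes the arrays and summarises probes into probe sets. RMA is named in the submitters' processing notes, and its version is not given in the sources used here. How the RNA was primed is not given either, which matters for plastid transcripts, since many lack long poly(A) tails. Of 22810 probe sets 64 controls were left out. The remaining 22746 entered 1 linear model per probe set (lmFit, then eBayes, limma 3.58.1, R 4.3.3) on all 12 arrays with 6 group means and 6 residual degrees of freedom. Tests were two-sided with Benjamini-Hochberg adjustment over all probe sets and a threshold of 0.05. The fit was tested on simulated data. The p-values reflect the spread between 2 arrays a group, which could be technical alone, and the number of arrays limits the precision.

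Probe sets were named through the platform annotation and the RefSeq gene table (TAIR10.1): 13513 name 1 gene, 503 several and 8730 are unnamed here. Where several probe sets name a gene, the brightest on average stands for it. Of the 13513, 13436 matched the table. Named genes are the 15 largest rises, the 10 largest falls of plastid genes and the 15 largest other falls in gun1-1 whose groups do not overlap, the 10 largest changes each way in Col-0, the 5 largest differences each way from each other genotype, and up to 4 members of a gene list that passed in its main direction and 2 in the other. Members of plastid lists, and of lists of up to 12 genes, could all be named. EXPA4 and EXPA20 were named after their values were seen. BZIP60, OS9, ATERDJ3B, CRT1b, BZIP28, BZIP17, NDB1, NDB2 and NDB4 also lie outside these rules, as members of lists with more than 12 genes. Their single calls were not followed under the alternatives below. The members and the 48 lists were chosen with earlier results of these data known. Lists were corrected by symbol and locus once the annotation was read, and the leucine list was added after values were seen. A root hair list tried then was dropped because its measured genes were already root markers. Counts, medians and figures were made with Python 3.11.15, pandas 2.3.3, numpy 2.4.6 and matplotlib 3.10.9. Alternatives were a replicate block, a fit of the compared groups only, a trended robust prior, array weights, centring, renewed quantile normalization, a filter on dim probe sets, probe sets with 1 gene, a fold threshold, and leaving out each array.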

Additional observations from a re-analysis of the deposited data

Results flagged for a closer look

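Of 296 genes named by the rules above, 69 were singled out because the test of the difference between the gun1-1 and the Col-0 response itself passed. The gun1-1 log2 fold change was the higher one in 52 and the lower one in 17. Values in parentheses are log2 differences of the 2 responses. Groups of 2 arrays are too small to look for single arrays that stand apart.

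Higher responses of nuclear photosynthesis and photorespiration genes were found for NdhL (1.92), NdhN (1.87), AT1G32470 (1.82), CaS (1.82), PSAE-1 (1.40), SBPASE (1.33), PIFI (1.32), AT1G11860 (1.25), CRR21 (1.22), PRK (1.19), PSBW (1.16), PSBY (1.12), HPR (1.07), LHCB4.2 (1.06), TAPX (1.03), PSAN (0.97), LHCB4.1 (0.88), ATPC1 (0.87) and RCA (0.83). In the tetrapyrrole, plastid ribosomal protein and plastid chaperone and protease lists they were found for Cpn60beta2 (1.52), HEME1 (1.39), Cpn60beta4 (1.26), AT5G47190 (1.24), HEME2 (1.00), CHLI2 (0.98), AT2G35410 (0.93), AT3G54210 (0.89), AT1G74470 (0.83), CHLM (0.78) and CLPP4 (0.67). In the endoplasmic reticulum and heat shock lists they were found for AT5G37670 (2.33), AT1G53540 (1.94), SEC31A (1.88), AT2G20560 (1.32), AT2G29500 (1.06), AT5G48570 (FKBP65) (1.03), AT3G60540 (1.00) and AT4G16660 (0.93). The remaining genes with a higher response were AT3G28270 (4.56), AT2G27420 (3.94), AT5G42760 (3.19), AT1G65870 (2.86), AT1G73600 (2.73), AT1G60590 (2.44), AT3G28220 (2.07), AT1G43910 (1.97), AT5G48490 (1.80), BGLU25 (1.61), AT5G13880 (1.57), ATATH8 (1.18), AT2G31790 (1.09) and TRY (0.88).

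Lower responses in gun1-1 were found for the plastid genes rpl16 (-1.86), rpl22 (-1.46), rpl36 (-1.43), psaJ (-1.39), psbM (-1.34), petB (-1.24), petA (-0.85) and ndhI (-0.72), and for the nuclear genes AT1G12080 (-2.48), GH9B13 (-1.85), AT5G44400 (-1.75), AT1G80280 (-1.72), AT1G19530 (-1.47), WES1 (-1.24), AT5G45670 (-1.18), AT1G19540 (-1.12) and LCR69 (-0.94). Of the 69 differences, 67 had a value under all 21 alternatives, and 33 of these passed under each.

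Against abi4-102 10 named genes were singled out in the same way. The higher responses in gun1-1 were those of AT2G27420 (3.32), AT3G28270 (3.26), AT5G42760 (3.09), AT1G73600 (3.03) and AT1G65870 (2.41), and the lower ones those of rpl36 (-2.42), rpl14 (-1.98), rpl16 (-1.95), psaJ (-1.86) and AT2G13160 (-1.78). Of these 10, 5 passed under all 21 alternatives. That of AT2G13160 was lost without untreated replicate 2 (adjusted p = 0.0621) or treated replicate 1 (0.0529) of abi4-102 or without treated gun1-1 replicate 1 (0.0545). Both sets of differences share the gun1-1 arrays.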

How the results depend on the processing

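With any 1 of the 12 arrays left out, limma called 1145 to 2485 probe sets for the gun1-1 response, 2099 to 4059 for Col-0, 1156 to 3091 for abi4-102, 392 to 971 for gun1-1 minus Col-0 and 20 to 130 for gun1-1 minus abi4-102. The gun1-1 count was 1145 and 1241 without untreated replicate 1 or 2, and 1764 and 1149 without treated replicate 1 or 2. A fit of the compared groups alone gave 766 for gun1-1, 1966 for abi4-102 and 54 for gun1-1 minus abi4-102, and has fewer residual degrees of freedom. Array weights gave 1587 for gun1-1 and 76 for gun1-1 minus abi4-102, and the trended robust prior 205 for the latter. Among probe sets that name 1 gene, which are fewer, there were 1252, 1960, 1588, 466 and 44 calls, in the order of the first sentence. A change of at least 2-fold left 435, 902, 503 and 540 for the first 4. In no gene named by the rules above did the direction of a called value reverse. The share of rises among gun1-1 calls was 54.2%, with 57.9% when arrays were centred on their medians, 51.0% in the fit of the gun1-1 groups alone and 45.3% at a change of at least 2-fold. Of 118 genes named by these rules that passed in the gun1-1 response, 114 had a value under all 21 alternatives, and 60 of these passed under each. With the replicate number as a block the counts were 2297, 3881, 2844, 903 and 85. Deviations of same-numbered arrays correlated at over 0.1 in 3 of 15 pairs of groups (-0.283 to 0.281). The highest value was that between untreated and treated abi4-102, and the value between the gun1-1 groups was -0.0688. These correlations cannot decide whether equal replicate numbers pair the samples. The main fit used no pairing. The number of arrays and low signals, with genes such as SEC31A and AT5G37670 near the 25th percentile when untreated, limit what these arrays resolve.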
